A study of Mus musculus with 2 samples.

Results

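Effector CD8 T cells carrying transcripts of Gzma, Gzmb or Klrg1 were followed here in mouse spleen. A cell counted as one of them when its CD8 and CD3 genes had been detected, the unique molecular identifiers (UMIs, each standing for 1 captured transcript) of Gzma, Gzmb and Klrg1 summed to at least 2, and no Gzmk UMI had been found. Of 10699 gated CD8 T cells in the DHEA library 130 met the rule, and of 8717 in the CTRL library 25 did. The members were thus chosen by their measured UMIs of Gzma, Gzmb, Klrg1 and Gzmk. These 155 cells are called effector cells below. The gate asked for at least 200 genes, under 10% mitochondrial UMIs, at least 1 UMI of Cd8a or Cd8b1 and at least 1 of Cd3d, Cd3e or Cd3g.

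The cells came from the spleens of wild-type C57BL/6 mice. DHEA mice had received dehydroepiandrosterone, an androgen precursor used to model polycystic ovary syndrome, under the skin at 40 mg/kg in 20 µL sesame oil each day for 21 days. CTRL mice had received the same volume of oil on the same days, and CD8 T cells of both groups were collected with magnetic beads and pooled. Each group has 1 library, and the labels leave out how many mice were pooled, their sex and their age. With 1 library per group no difference has a replicate check and no test was run. Intervals are exact 95% intervals that cover counting error only, and with 1 library each, mouse, library and treatment cannot be told apart.

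Gzma and Gzmb encode granzymes, serine proteases that killer lymphocytes deliver into target cells from cytotoxic granules. Klrg1 encodes an inhibitory lectin-like receptor found on late effector T cells and on natural killer (NK) cells. Short-lived effector CD8 T cells are known for high T-bet (Tbx21) and Zeb2 and for the receptors Cx3cr1 and S1pr5, which mark cells of blood and splenic red pulp. Memory precursors and naive cells keep Il7r, Ccr7 and Tcf7. Gzmk marks another state of CD8 T cells, which the rule left out.

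Sequencing depth differed between the libraries. The matrices held 12128 barcodes with 53020893 UMIs for DHEA and 9495 barcodes with 51638782 UMIs for CTRL, and 11671 and 9210 cells passed the filters. The effector cells had a median of 3606.5 UMIs in DHEA and 6731 in CTRL, against 4504 and 5612.5 in other gated cells. The part of sampling depth in the difference between the effector cells was not tested. Summed over the effector cells there were 559048 UMIs in DHEA and 171633 in CTRL. Levels are given as CPM, the UMIs of a gene per 1000000 UMIs of the same sum. The libraries shared 51 barcodes, of which 1 belonged to a DHEA effector cell and none to a CTRL effector cell.

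Effector cells made up 1.22% (1.02 to 1.44) of gated CD8 T cells in DHEA and 0.287% (0.186 to 0.423) in CTRL. The share was chosen with this difference known and is a description. The difference was 0.928 percentage points, and it was 1.04 after every cell had been thinned to 2000 UMIs, where 91 DHEA cells and 4 CTRL cells still met the rule. As a check on free RNA, 1 of 2641 DHEA cells (0.0379%) and 0 of 3220 CTRL cells (up to 0.114%) with naive markers (Ccr7 among those detected, no Ccl5 or Gzmk UMI) met the same rule, at median depths of 5284.5 and 5898 UMIs per cell. In both libraries the effector share was above that level. Ccl5, absent by choice from the naive-marker cells, had 13682 CPM in DHEA and 7050 CPM in CTRL effector cells. Cells that took up free RNA of effector cells may thus have been left out of the check. It therefore sets no upper limit for free RNA. A further 122 DHEA cells and 2 CTRL cells had at least 2 UMIs of the rule genes and were left out for a Gzmk UMI. With these kept the shares became 2.36% in DHEA and 0.310% in CTRL.

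Gzma was the rule gene detected most often. It had a UMI in 96 of 130 DHEA effector cells (73.8%) and 19 of 25 CTRL effector cells (76%). Gzmb was detected in 83 DHEA cells (63.8%) and 5 CTRL cells (20%), and Klrg1 in 58 DHEA cells (44.6%) and 8 CTRL cells (32%). All 3 genes were found together in 27 DHEA cells and 1 CTRL cell. Gzma alone, without Gzmb or Klrg1, was found in 27 DHEA cells (20.8%, 14.2 to 28.8) and 14 CTRL cells (56%, 34.9 to 75.6). Of the CTRL effector cells, the largest class therefore met the rule by Gzma alone. The sum of the rule genes per cell had a median of 5 and a maximum of 79 in DHEA, against a median of 3 and a maximum of 66 in CTRL.

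**Figure D1:**
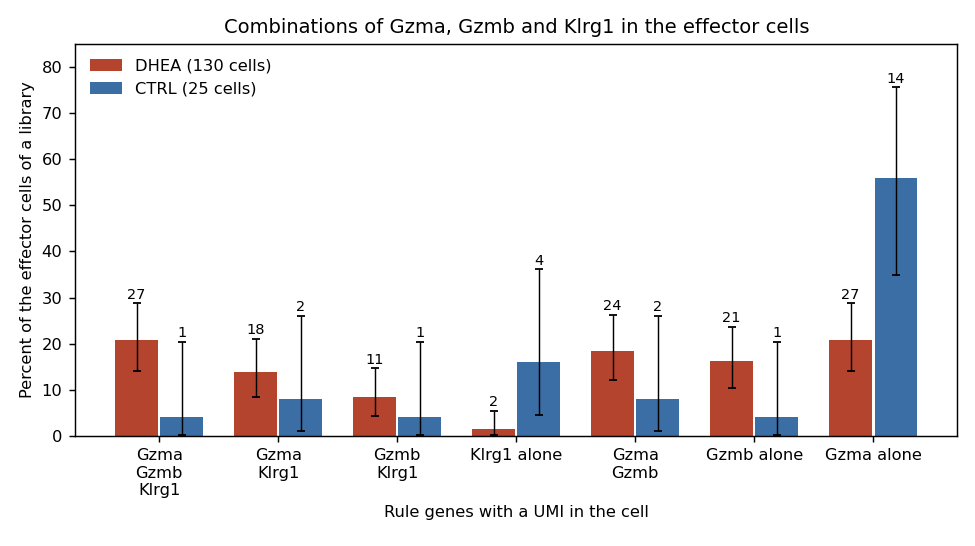
Share of the effector cells of each library (vertical axis, percent) by which of Gzma, Gzmb and Klrg1 had a UMI (horizontal axis), with DHEA left of CTRL, the number of cells above each bar and exact 95% binomial intervals. DHEA cells spread over 6 combinations of 11 to 27 cells plus 2 cells with Klrg1 alone, while 14 of the 25 CTRL cells had Gzma alone.

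The label markers that the rule did not use held for most DHEA cells and for fewer CTRL cells. At least 1 of Cx3cr1, S1pr5, Zeb2 and S100a4 was detected in 102 of 130 DHEA effector cells (78.5%, 70.4 to 85.2) and 11 of 25 CTRL effector cells (44%, 24.4 to 65.1). In other gated cells it was 4.53% in DHEA and 2.76% in CTRL. All 4 were found in 7 DHEA and 2 CTRL effector cells, and none in 28 DHEA and 14 CTRL effector cells. In CTRL the label markers were thus not detected in 14 of 25 cells, although CTRL effector cells had more UMIs per cell at the median. The effector cells are called by their rule throughout.

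The level of Zeb2 near the threshold differed between the libraries. With exactly 2 UMIs of the rule genes, just inside, there were 30 DHEA and 11 CTRL cells, and with exactly 1, just outside, 227 DHEA and 80 CTRL cells. Zeb2 stood at 108 CPM in the DHEA cells just inside and 71.7 CPM in those just outside. In CTRL, Zeb2 stood at 1068 CPM just inside and 38.3 CPM just outside. At 8 or more UMIs of the rule genes, met by 52 DHEA cells and 1 CTRL cell, Zeb2 reached 919 CPM in DHEA. In DHEA, the level of Zeb2 was thus higher where the rule genes were more abundant, whereas in CTRL 73 of the 80 Zeb2 UMIs came from the 11 cells just inside. At least 1 of the 4 label markers was found in 60% of DHEA cells just inside and 72.9% of those with 3 to 7 rule gene UMIs, and in 63.6% and 23.1% of such CTRL cells.

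One CTRL effector cell stood apart. It held 54 of the 109 Gzma UMIs and 11 of the 22 Gzmb UMIs of all CTRL effector cells, had 1 Cd8b1 UMI, 1 Cd3d UMI and no Cd8a, Cd3e or Cd3g UMI, and carried 19 UMIs of Tyrobp, an adaptor of NK receptors, and 13 of Klrb1c (NK1.1). Its summed UMIs over 9 NK and myeloid genes, Tyrobp and Klrb1c among them, were 111, against 13 in the next CTRL cell and a maximum of 17 in DHEA. The whole NK marker list had 7 of 9 genes detected in DHEA effector cells, where Ncr1 and Klra4 were at 0, and 9 of 9 in CTRL. It summed to 317 CPM in DHEA effector cells and 1037 CPM in CTRL effector cells, against 94.7 CPM in DHEA other cells and 53.1 CPM in CTRL other cells, and 116 of the 178 CTRL UMIs were in 1 cell. Eomes on that list is also made by CD8 T cells. At least 2 UMIs of 6 NK and myeloid genes were found in 27 DHEA effector cells (20.8%) and 9 CTRL effector cells (36%). Without such cells, 93 genes were at least 2-fold higher and 38 lower than in other gated cells in both libraries. Without the NK-marker-rich cell, 102 genes were at least 2-fold higher and 35 lower than in other gated cells in both libraries, against 105 and 34 with it. The B cell list had UMIs of 3 of 6 genes in DHEA effector cells (79 UMIs in 47 cells, 141 CPM) and of 2 of 6 in CTRL effector cells (27 UMIs in 13 cells, 157 CPM), against 290 CPM in DHEA and 268 CPM in CTRL other cells, with Cd79a and Ms4a1 at 0 in the effector cells of both libraries. The myeloid list had UMIs of 3 of 7 genes in DHEA effector cells (45 UMIs in 35 cells, 80.5 CPM) and of 2 of 7 in CTRL effector cells (20 UMIs in 14 cells, 117 CPM), against 70.0 CPM in DHEA and 68.1 CPM in CTRL other cells, with Lyz2, Csf1r, Adgre1 and Fcgr3 at 0. The part of these genes' source in the results was not tested. All genes of the neutrophil, plasma cell and red cell lists were at 0 in the effector cells of both libraries, as were Cd4 and Foxp3. Trdc, the constant gene of the T cell receptor delta chain, had 23 UMIs in 6 DHEA effector cells and 0 in CTRL, while Trac was found in 115 DHEA and 22 CTRL effector cells. The doublet caller marked 1 DHEA and 0 CTRL cells, so no doublets were removed in the values given. Leaving out the 1119 DHEA and 861 CTRL cells with the highest doublet scores, 11 and 0 of them effector cells, gave 113 genes at least 2-fold higher and 43 lower than in other gated cells in both libraries.

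Relative to the other gated CD8 T cells of their own library, the effector cells carried more transcripts of genes known from late effector cells, in both libraries. Zeb2, S1pr5, Cx3cr1, S100a4, Bhlhe40, NK receptor genes and galectins were higher, and Ccr7, Il6ra, Igfbp4, Dapl1 and St8sia1 were lower. Of 5221 measured genes (mean of the 4 CPMs at least 25, rule genes left out), 105 were at least 2-fold higher in both libraries (2.01%) and 34 at least 2-fold lower in both (0.651%). With TMM scaling factors, which lower every ratio by 0.17 in DHEA and 0.21 in CTRL (log2), 76 were higher and 48 lower. In single libraries, 3.51% of the genes were at least 2-fold higher and 1.72% lower in DHEA, and 6.88% higher and 5.29% lower in CTRL. The CTRL effector sum holds fewer UMIs and has the larger counting error, and nothing is read from its larger shares. The cells were selected within this contrast, so these counts and the list counts that follow are a description. The median log2 ratio over all measured genes was 0.13 in DHEA and 0.08 in CTRL.

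**Figure D2:**
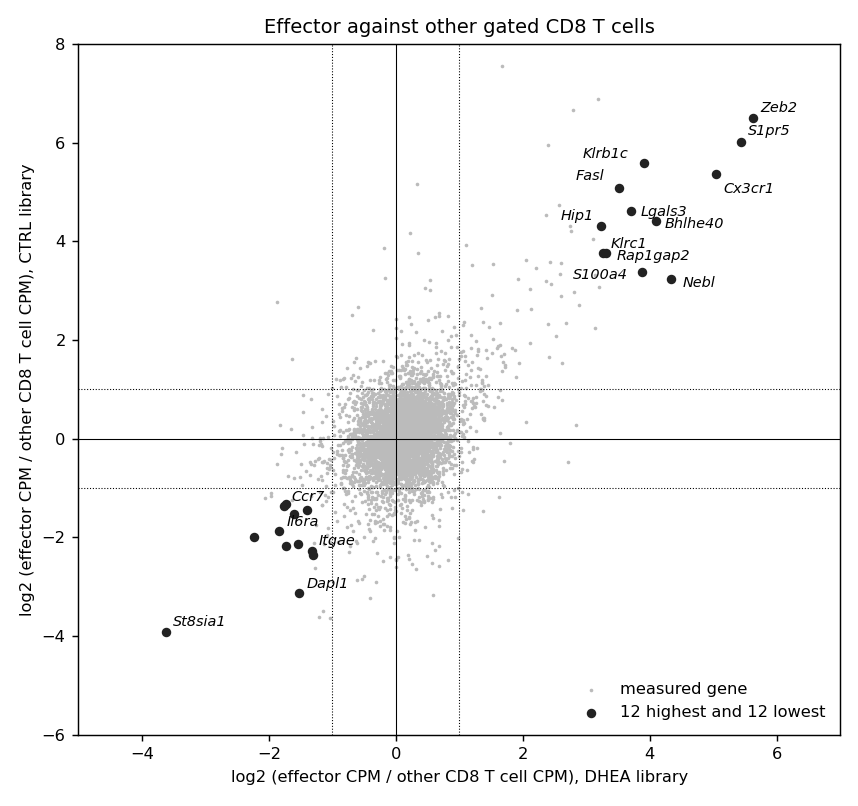
Log2 ratio of CPM in effector cells over CPM in other gated CD8 T cells, in the DHEA library (horizontal axis) and the CTRL library (vertical axis), 1 point per measured gene without the rule genes. Black points are the 12 genes highest and the 12 lowest by the library nearer to 0, dotted lines mark 2-fold, and genes with 0 UMIs in CTRL effector cells are drawn at their bound. Zeb2, S1pr5 and Cx3cr1 lie at the upper right and St8sia1 at the lower left.

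Transcription factors of effector differentiation were among the largest differences. Zeb2, a zinc-finger repressor that acts with T-bet in terminal effector cells, had 556 CPM (311 UMIs) in DHEA effector cells, against 11.3 CPM in DHEA other cells. In CTRL it had 466 CPM (80 UMIs) in effector cells, against 5.14 CPM in other cells. The log2 ratios were 5.63 (5.42 to 5.83) in DHEA and 6.50 (6.12 to 6.87) in CTRL. Zeb2 UMIs were found in 52.3% of DHEA and 36% of CTRL effector cells, and after thinning each cell to 1000 UMIs (7 DHEA cells were shallower and left out) in 36.6% of DHEA and 28% of CTRL effector cells, against 0.747% of DHEA and 0.380% of CTRL other cells.

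Tbx21, encoding T-bet, the factor that drives cytotoxic and interferon gamma genes, stood at 292 CPM in DHEA effector cells, against 48.0 CPM in other cells. In CTRL it stood at 309 CPM in effector cells, against 26.0 CPM in other cells. Id2, an inhibitor of E proteins needed for effector cells, had log2 ratios of 2.41 in DHEA and 1.66 in CTRL. Bhlhe40, a stress and activation-responsive repressor, had ratios of 4.09 and 4.42, Rora 2.61 and 1.54, and Hopx 1.46 and 2.26. These 6 genes were the members of the effector factor list at least 2-fold higher in both libraries, of 11 measured. Runx3 (0.29 in DHEA and 0.09 in CTRL) and Stat4 (0.11 and 0.60), which other CD8 T cells also use, differed little. Of the 12 measured factors of naive and memory cells, Bach2, a repressor of effector genes, was at least 2-fold lower in both (-1.17 in DHEA and -1.35 in CTRL). Lef1 had ratios of -0.96 and -1.49 and Tcf7 of -0.96 and -0.72.

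Homing receptors formed the second group. S1pr5, a receptor for sphingosine-1-phosphate that lets effector and NK cells leave tissue, had 102 CPM in DHEA effector cells, against 2.36 CPM in other cells, and 40.8 CPM (7 UMIs) in CTRL effector cells, against 0.632 CPM. Cx3cr1, the fractalkine receptor, had 134 CPM in DHEA effector cells, against 4.08 CPM, and 52.4 CPM (9 UMIs) in CTRL effector cells, against 1.26 CPM. In CTRL, 55.6% of the Cx3cr1 UMIs were from 1 cell, and without the highest cell the CTRL log2 ratio was 4.21, against 5.38 with it. Both genes were detected in 38 DHEA cells and 5 CTRL cells each.

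Of 20 measured homing genes, 8 were at least 2-fold higher in both libraries. Besides S1pr5 and Cx3cr1 they included the chemokine receptors Ccr2 and Cxcr6, the integrin chains Itgb1 and Itgb2 and the hyaluronan receptor Cd44. Itgb1, the beta chain of VLA integrins, had 390 CPM in DHEA effector cells, against 68.1 CPM in other cells, and 221 CPM in CTRL effector cells, against 52.3 CPM. Lower in both were 3 members. Ccr7, which guides cells into lymph nodes and T zones, had 76.9 CPM in DHEA effector cells, against 261 CPM in other cells, and 87.4 CPM in CTRL effector cells, against 225 CPM. The others were Itgae, the CD103 integrin chain of resident cells (-1.33 in DHEA and -2.27 in CTRL), and Ccr9, a gut-homing receptor (-1.14 in DHEA, and -2.14 or lower in CTRL, where it had 0 UMIs and was put at 3).

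NK receptors carried by cytotoxic T cells made up the third group, with 9 of 14 measured members at least 2-fold higher in both libraries. Klrc1, the inhibitory NKG2A chain, had 190 CPM in DHEA effector cells, against 19.7 CPM in other cells, and 99.0 CPM in CTRL effector cells, against 7.32 CPM. Klrk1, the activating receptor NKG2D, had log2 ratios of 3.11 in DHEA and 4.05 in CTRL, and Slamf7 2.44 and 3.14. Klrb1c had ratios of 3.90 in DHEA and 5.58 in CTRL, and 4.65 in CTRL without the NK-marker-rich cell. Tyrobp had ratios of 2.80 in DHEA (8 UMIs) and 6.67 in CTRL (21 UMIs, 19 of them from that cell). All 17 CTRL UMIs of Klra8 were in the same cell. Without it, 6 of 10 measured members were at least 2-fold higher. Klra and Klrc genes are families of near-identical copies, so reads can be split between their members and single values are uncertain.

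Some granule and cytokine genes outside the rule were also higher, 3 of 13 and 4 of 9 measured members at least 2-fold in both libraries. Nkg7, a granule membrane protein needed for degranulation, had 1656 CPM in DHEA effector cells, against 673 CPM in other cells, and 1352 CPM in CTRL effector cells, against 556 CPM. Fasl, the death ligand, had log2 ratios of 3.51 in DHEA and 5.09 in CTRL from 28 and 10 UMIs, and Serpinb6b, a serpin, 2.12 and 3.03. These were the 3 granule genes. Prf1, the pore-forming perforin, had 91.2 CPM in DHEA effector cells, against 58.9 CPM (0.63), and 163 CPM in CTRL effector cells, against 44.9 CPM (1.86). Ccl5, a chemokine made by memory and effector CD8 T cells, had 13682 CPM in DHEA effector cells, against 1558 CPM, and 7050 CPM in CTRL effector cells, against 706 CPM. Ccl4 (2.42 in DHEA and 3.58 in CTRL), Ccl3 (2.75 and 4.31) and Ifng (2.13 and 2.64) were the other cytokine genes past 2-fold in both, but 90% of the CTRL Ccl3 UMIs were from 1 cell, without which the CTRL ratio was 0.99. Both Ltb (-0.57 in DHEA and -0.25 in CTRL) and Tgfb1 (-0.33 and -0.56) had ratios below 0.

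Calcium-binding S100 proteins, annexins and galectins, which go with motility and a reorganised cytoskeleton, were the fourth group, with 6 of 23 measured members at least 2-fold higher in both libraries. S100a4 had 426 CPM in DHEA effector cells, against 29.0 CPM in other cells, and 75.7 CPM (13 UMIs) in CTRL effector cells, against 7.28 CPM. S100a6 had log2 ratios of 3.19 in DHEA and 3.07 in CTRL, Lgals1 (galectin-1) 3.14 and 2.25, Lgals3 (galectin-3) 3.70 and 4.61, Anxa2 (annexin A2) 207 CPM in DHEA effector cells, against 39.3 CPM, and 128 CPM in CTRL effector cells, against 25.7 CPM, and Ahnak, a large scaffold protein, 2.11 and 1.94. Rap1gap2, a regulator of the small GTPase Rap1, had ratios of 3.31 and 3.77, Hip1, an endocytic adaptor, 3.22 and 4.32, and Nebl, an actin-binding protein, 4.34 and 3.23, the CTRL value of Nebl resting on 6 UMIs in 2 cells.

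The lowest genes included several known from naive and resting T cells, such as Ccr7, Igfbp4, Dapl1 and Actn1. St8sia1, a sialyltransferase of gangliosides, had 3 UMIs (5.37 CPM) in DHEA effector cells, against 66.0 CPM in other cells, and 1 UMI (5.83 CPM) in CTRL effector cells, against 87.7 CPM, with intervals of -5.90 to -2.07 and -9.22 to -1.43 around log2 ratios of -3.62 and -3.91. Il6ra, the interleukin 6 receptor chain, had ratios of -1.84 in DHEA and -1.88 in CTRL, Igfbp4 -1.73 and -2.17, Dapl1 -1.52 and -3.13, and Actn1, an actin crosslinker, -1.54 and -2.13. Rgs10, a regulator of G protein signalling, had ratios of -1.61 and -1.52. Auts2 and Slc28a2b had 0 UMIs in CTRL effector cells and ratios of -2.23 and -1.41 in DHEA. Il7r was not among the lowest genes, with ratios of -0.85 in DHEA and -0.23 in CTRL.

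Several lists showed no member past 2-fold in both libraries. Of 19 measured T cell receptor signalling genes none was at least 2-fold higher or lower in both, nor of 14 immediate early, 15 glycolysis, 12 heat shock and 5 steroid response genes. Hspa1b, a heat shock gene, had 85.9 CPM in DHEA effector cells, against 172 CPM in other cells, and 105 CPM in CTRL effector cells, against 51.2 CPM. In CTRL 72.2% of its UMIs were from 1 cell, and without that cell the log2 ratio was -0.81, against 1.04 with it. Of 22 interferon genes 1, Ly6a, was at least 2-fold higher in both (1.10 in DHEA and 3.93 in CTRL). The interferon list median was 0.24 in DHEA and 1.62 in CTRL. Of its 22 members 16 were above 0 in both libraries, against 2081 of all 5221 measured genes. Isg15, a ubiquitin-like interferon-induced protein, had ratios of 0.54 in DHEA and 3.02 in CTRL. Of 11 measured cell cycle genes none was at least 2-fold higher or lower in both, and the list median was 1.04 in DHEA and 0.11 in CTRL. Cells with at least 2 UMIs of 6 division genes (Mki67, Top2a and others) numbered 12 of 130 in DHEA (9.23%, 4.86 to 15.6) and 1 of 25 in CTRL (4%, 0.101 to 20.4), against 1.21% of DHEA and 0.886% of CTRL other cells. Pdcd1, the exhaustion-associated receptor PD-1, had 7 UMIs in DHEA effector cells and 0 in CTRL. The ribosomal protein genes took a median of 21.3% of the UMIs of a DHEA effector cell, against 31.5% in other cells, and 25.8% in CTRL effector cells, against 30.8%. This was not particular to the effector cells, as gated cells with a Gzmk UMI had 20.8% in DHEA and 26.6% in CTRL.

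The effector cells were next set beside other cells with memory or cytotoxic genes. Gzmk-positive cells were the gated cells with a Gzmk UMI (213 DHEA and 30 CTRL). Of these, 122 DHEA and 2 CTRL cells also had at least 2 UMIs of the rule genes, so this set was not alike in the libraries. Memory-marker cells had no Gzmk UMI, at least 2 Ccl5 UMIs and at least 1 of Cxcr3 or Il2rb, and did not meet the effector rule (2548 and 1215). Both sets were defined after the data were seen, and Ccl5, Cxcr3 and Il2rb were used to choose the memory-marker cells. Against Gzmk-positive cells, 28 of 5315 measured genes (0.527%) were at least 2-fold higher in both libraries and 10 (0.188%) lower. Against memory-marker cells, 59 of 5179 (1.14%) were higher and 10 (0.193%) lower.

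Summed over the cells, Zeb2 was higher in effector cells than in either set. It had 556 CPM in DHEA effector cells, against 229 CPM in Gzmk-positive and 7.21 CPM in memory-marker cells, and 466 CPM in CTRL effector cells, against 149 and 18.4 CPM. The effector over Gzmk-positive log2 ratios were 1.28 (1.04 to 1.52) in DHEA and 1.65 (1.01 to 2.33) in CTRL. Not every effector cell carried it, as 52.3% of DHEA and 36% of CTRL effector cells had a Zeb2 UMI, and the 14 CTRL cells with Gzma alone had 25.9 CPM, below the Gzmk-positive level. S100a6 ran the other way, with 1091 CPM in DHEA effector cells, against 2283 CPM in Gzmk-positive cells, and 297 CPM in CTRL effector cells, against 828 CPM. Hmgb2, a chromatin protein abundant in dividing cells (-1.15 in DHEA and -1.61 in CTRL), Lgals3 (-1.21 and -1.53) and Ctla2a, a protease inhibitor (-1.10 and -1.61), were also lower than in Gzmk-positive cells. Of the genes highest against Gzmk-positive cells, Klra8 and Tyrobp rested in CTRL on the NK-marker-rich cell. Against memory-marker cells the leading genes were again Zeb2, Cx3cr1, Lgals3, S1pr5 and Bhlhe40, while Ccl5 (13682 CPM in DHEA effector and 3415 CPM in DHEA memory-marker cells) and Tbx21 (292 and 101 CPM) were higher without being absent from memory-marker cells. Eomes, a T-box factor of memory and NK cells, was near the memory level, at 85.9 CPM in DHEA effector cells, against 89.7 CPM in memory-marker cells, and 99.0 CPM in CTRL effector cells, against 64.4 CPM.

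**Figure D3:**
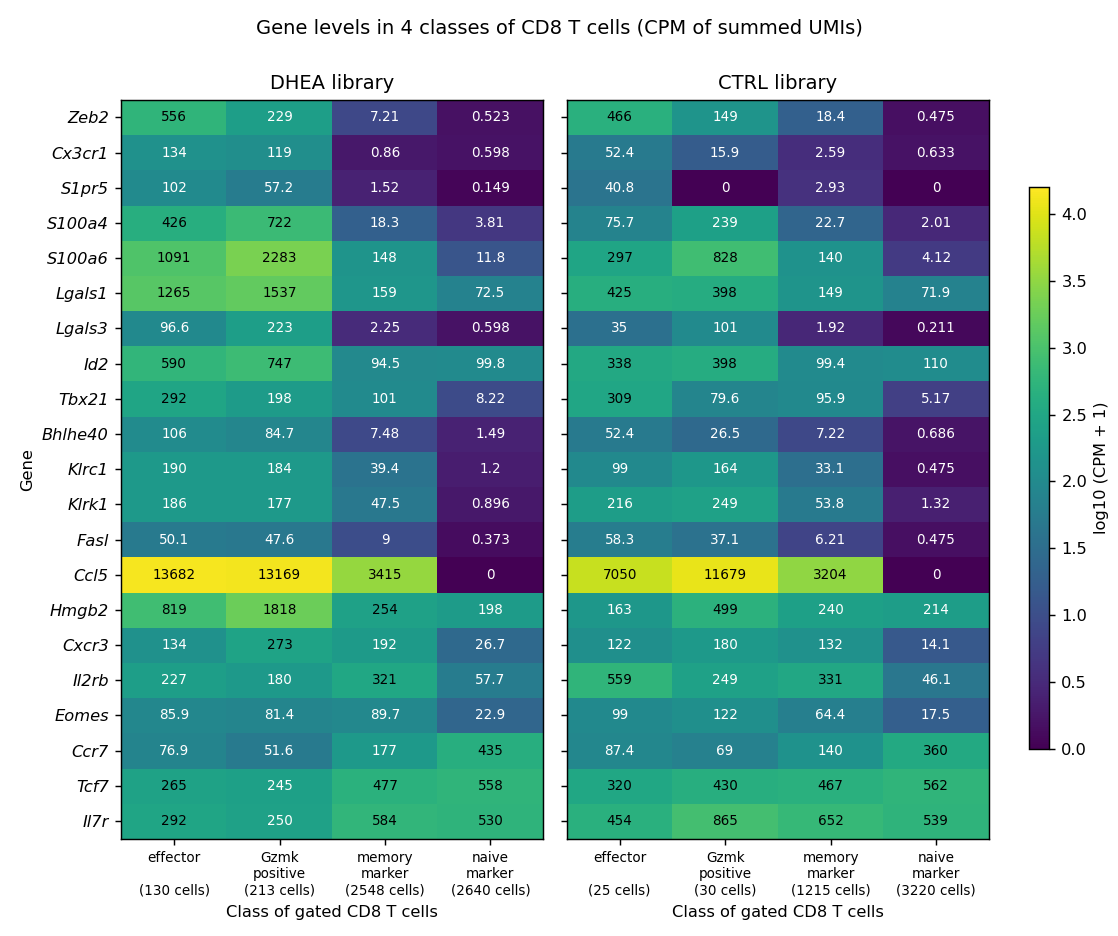
CPM of a panel of genes (rows, printed in each box and coloured on a log10 scale) in effector, Gzmk-positive, memory-marker and naive-marker cells (columns), with the DHEA library left of the CTRL library. Zeb2 is highest in effector cells, lower in Gzmk-positive cells, and lower again in memory-marker and naive-marker cells (0.523 CPM in DHEA and 0.475 CPM in CTRL). Ccr7, which was used to choose the naive-marker cells, is highest there.

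Among themselves the effector cells differed by which rule gene they carried. They were divided into cells with Klrg1 (58 DHEA and 8 CTRL), cells with Gzmb and no Klrg1 (45 and 3), and cells with Gzma alone (27 and 14). A missing UMI in a shallow cell does not show that the gene is off, and the classes were drawn after the data were seen. In DHEA, Zeb2 stood at 931 CPM in Klrg1-positive cells, 305 CPM in Gzmb cells and 285 CPM in Gzma-alone cells. Cx3cr1 followed with 258, 55.9 and 37.5 CPM, and S1pr5 with 175, 50.8 and 52.5 CPM. S100a4 instead was alike in the Klrg1-positive (581 CPM) and Gzmb (523 CPM) cells and low in the Gzma-alone cells (15.0 CPM, 2 UMIs). Id2 had the same order, with 760, 706 and 127 CPM.

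Bcl2 and Satb1 ran in the opposite order. Bcl2, a survival factor, stood at 127 CPM in DHEA Klrg1-positive cells, 244 CPM in Gzmb cells and 375 CPM in Gzma-alone cells, and Satb1, a chromatin organiser of resting T cells, at 170, 351 and 480 CPM in the same order. Il7r, the interleukin 7 receptor chain, was lowest in the Klrg1-positive cells and highest in the Gzmb cells, at 149 CPM in Klrg1-positive, 422 CPM in Gzmb and 345 CPM in Gzma-alone cells. For comparison, a Zeb2 UMI was found in 45 of 58 Klrg1-positive, 15 of 45 Gzmb and 8 of 27 Gzma-alone DHEA cells. Cxcr6, a receptor of tissue-dwelling T cells, was highest in the Gzmb cells (279 CPM), against 122 CPM in Klrg1-positive and 52.5 CPM in Gzma-alone cells. The median UMIs per cell were 3221.5, 3645 and 4598, and the ribosomal protein share 18.6%, 21.8% and 28.5%.

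**Figure D4:**
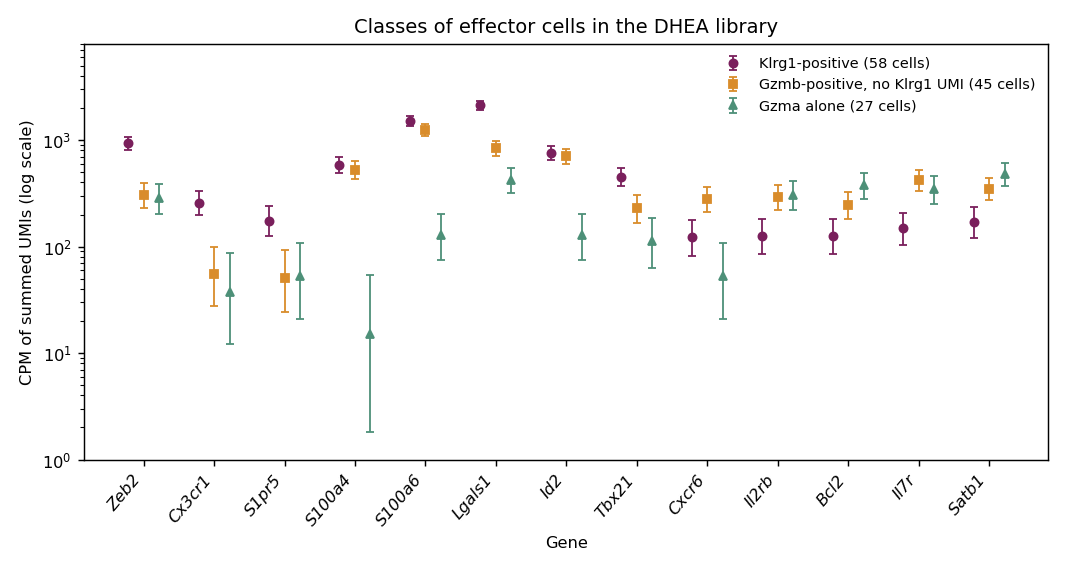
CPM (log scale) of a panel of genes in the DHEA effector cells, divided into Klrg1-positive cells (circles), cells with Gzmb and no Klrg1 UMI (squares) and cells with Gzma alone (triangles), with exact 95% Poisson intervals. Zeb2, Cx3cr1, S1pr5 and Tbx21 are highest in Klrg1-positive cells, S100a4 is near the bottom in Gzma-alone cells, and Bcl2 and Satb1 are lowest in Klrg1-positive cells.

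For Zeb2 the CTRL classes showed a similar division with fewer cells. Zeb2 was detected in 7 of 8 Klrg1-positive and 1 of 14 Gzma-alone CTRL cells. Il2rb, the receptor chain for interleukins 2 and 15, was found in 13 of 14 Gzma-alone and 5 of 8 Klrg1-positive CTRL cells. Its levels there were near each other, at 578 CPM in Gzma-alone and 568 CPM in Klrg1-positive CTRL cells. In DHEA they were 307 and 127 CPM. Levels of Zeb2 were 1704 CPM (66 UMIs) in Klrg1-positive and 25.9 CPM (3 UMIs) in Gzma-alone CTRL cells.

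Between the libraries, DHEA effector cells had more transcripts of S100 proteins, galectin-1, vimentin and Hmgb2, and fewer of Il2rb, Jun, Bcl2 and the interferon-inducible Ifi203. Of these, Vim turned to -0.84 after thinning to 2000 UMIs per cell, where 4 CTRL cells remained, and Bcl2 to 0.16 without the Gzma-alone cells. Of 442 genes with at least 200 UMIs over the effector cells of both libraries, 11 were at least 2-fold higher in DHEA (2.49%) and 4 at least 2-fold lower (0.905%), and the median log2 ratio over all 442 was 0.02. The minimum is a sum over both libraries, to which DHEA gave 559048 effector UMIs and CTRL 171633. A gene high in DHEA therefore passed it more easily than one equally high in CTRL. Nothing is read from the higher count being the larger. Among the genes that passed, those named below are a description. S100a4 led, with 426 CPM (238 UMIs in 55 of 130 cells) in DHEA effector cells and 75.7 CPM (13 UMIs in 5 of 25 cells) in CTRL effector cells, a log2 ratio of 2.49 (1.69 to 3.42). Its ratio between the other gated cells of the libraries was 2.00. Hmgb2 had 819 CPM in DHEA effector cells and 163 CPM in CTRL effector cells, a ratio of 2.33 (1.78 to 2.93), against 0.16 in other cells. Without cells carrying at least 2 division-gene UMIs the ratio of Hmgb2 was 1.62.

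S100a6 had 1091 CPM in DHEA and 297 CPM in CTRL effector cells (1.88, 1.46 to 2.32), and 1.75 between other cells. For Lgals1 the levels were 1265 and 425 CPM (1.57, 1.22 to 1.94), and 0.68 between other cells. Vim, encoding the intermediate filament vimentin, stood at 538 CPM in DHEA and 204 CPM in CTRL effector cells (1.40, 0.89 to 1.95), and 0.03 between other cells. Also at least 2-fold higher were Abracl (1.32), Ucp2, a mitochondrial carrier (1.23), S100a10 (1.21), Emp3 (1.19) and Lsp1, a leukocyte actin-binding protein (1.03). Lsp1 was at -0.16 after thinning. The difference between the effector and the other-cell ratios was not tested. Of 16 measured members of the S100 and cytoskeleton list, 7 were at least 2-fold higher in DHEA, with a median log2 ratio of 0.79. Without the Gzma-alone cells, which were 20.8% of DHEA and 56% of CTRL effector cells, 2 of 14 measured members were at least 2-fold higher, with a median of 0.65.

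Genes lower in DHEA effector cells belonged to other roles. Il2rb had 227 CPM in DHEA and 559 CPM in CTRL effector cells (-1.30, -1.69 to -0.90), and a ratio of 0.50 between other cells. Ifi203 stood at 245 and 536 CPM (-1.13), Jun, an immediate early factor, at 277 and 583 CPM (-1.07), and Bcl2 at 227 and 460 CPM (-1.02). Just under 2-fold lower were the phosphatases Ssh2 (-0.84) and Ppm1h (-0.78), the cyclin Ccnd2 (-0.74), Foxn3 (-0.73), Mndal (-0.72) and the proteasome activator Psme1 (-0.67). Zeb2 (0.26, -0.10 to 0.63), Tbx21 (-0.08, -0.54 to 0.39), Hopx (-0.03) and Nkg7 (0.29) lay closer to 0, and Ccl5 had 13682 and 7050 CPM (0.96).

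**Figure D5:**
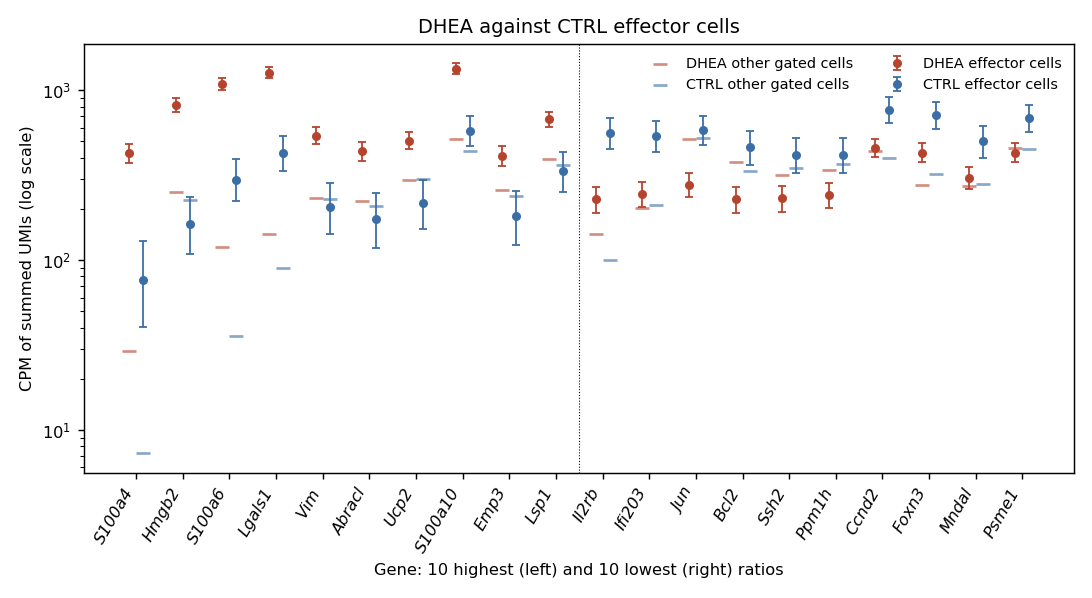
CPM of summed UMIs (log scale) of the 10 genes with the highest and the 10 with the lowest DHEA over CTRL ratio in effector cells. Circles with exact 95% Poisson intervals are effector cells, dashes are the other gated cells of the same library, and DHEA stands left of CTRL. For S100a4 and S100a6 the other cells also lie apart by library, while for Hmgb2 and Vim they lie together.

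The 2 libraries differ in the make-up of these cells, and values within 1 class differed from the pooled ones. In Klrg1-positive cells, S100a4 had 581 CPM in DHEA and 155 CPM (6 UMIs) in CTRL, a log2 ratio of 1.91 (0.75 to 3.38), and Hmgb2 1158 and 310 CPM (1.90, 1.07 to 2.87). Vim was at 607 and 594 CPM there, a ratio of 0.03 (-0.61 to 0.74), and Lgals1 at 2124 and 1291 CPM (0.72, 0.30 to 1.17). In these cells Emp3 (0.17), Lsp1 (0.45), S100a10 (0.60), Abracl (0.61), Ucp2 (0.67) and S100a6 (0.93) were under 2-fold, and Ifi203 stood at 232 CPM in both libraries, against a pooled ratio of -1.13. In Gzma-alone cells the ratio was 0.08 (-1.03 to 1.21) for S100a6, 1.28 (0.52 to 2.10) for Lgals1 and 1.12 (0.19 to 2.13) for Hmgb2. Ucp2 (1.53, 0.75 to 2.38), Emp3 (1.21, 0.22 to 2.30) and Abracl (1.05, 0.17 to 1.99) were also past 2-fold in Gzma-alone cells. Vim (0.92), S100a10 (0.70) and Lsp1 (0.43) were under 2-fold there, and Ifi203 was at -0.75 (-1.36 to -0.15).

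Il2rb was lower in DHEA in both classes, with log2 ratios of -2.16 (-3.01 to -1.29) in Klrg1-positive cells and -0.91 (-1.51 to -0.33) in Gzma-alone cells. Of the 22 CTRL Il2rb UMIs in Klrg1-positive cells 12 were in the NK-marker-rich cell. Bcl2 was at -0.69 in Gzma-alone cells and 0.30 (-1.21 to 2.26) in Klrg1-positive cells, and without the Gzma-alone cells its pooled ratio was 0.16 rather than -1.02. Jun was at -2.51 (-3.33 to -1.69) in Klrg1-positive cells, on 28 DHEA and 27 CTRL UMIs. In Gzma-alone cells Jun was at -0.30 (-0.84 to 0.24). For Zeb2 the classes ran opposite ways, with a DHEA over CTRL ratio of -0.87 (-1.28 to -0.45) in Klrg1-positive cells and 3.46 (1.80 to 5.80) in Gzma-alone cells. Without the Gzma-alone cells, 6 of 296 measured genes were at least 2-fold higher and 2 lower. The CTRL classes hold 8 and 14 cells of 1 library, so these values describe those cells.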

How the data were processed

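Per the file headers and labels, the authors deposited unnormalized UMI counts, 1 matrix per library from a 10x Genomics 3' kit. Cell Ranger 8.0.1, Seurat 4.3.0 and mm39 are named per the submitters' processing notes, with no role given for Seurat and no filter on barcodes. From these counts the cells were gated as described, UMIs were summed per library and cell set, and sums were given as CPM. Log2 ratios carry exact 95% intervals from the split of 2 counts, CPM exact Poisson and shares exact Clopper-Pearson intervals. A sum of 0 UMIs was put at 3 UMIs where that gives a bound. Scrublet marked under 0.5% of cells, so no doublets were removed. The 2-fold calls and intervals, but not the thinning, were tested on simulated sums of counts. Named genes were the 12 highest and 12 lowest effector over other ratios, the 10 highest and 10 lowest DHEA over CTRL ratios, the label markers, list members and a panel. Ctla2a, Trdc, Trac and the genes of single cells were chosen after their values were seen. Members, rule and all 18 lists were chosen with earlier results of these data known. Analyses used Python 3.11.15 (numpy 2.4.6, scipy 1.17.1, pandas 2.3.3, scanpy 1.11.5) and, for TMM factors, R 4.3.3 with edgeR 4.0.16. A few genes are not reported here.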

Additional observations from a re-analysis of the deposited data

How the results depend on the processing

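Counting error, 1 library per group and 25 CTRL effector cells limit these values. The difference in effector share (0.928 percentage points) was above 0 under each alternative. It was 2.13 with at least 1 rule gene UMI, where 2.01% of DHEA and 0.652% of CTRL naive-marker cells also had one, and 2.05 with Gzmk cells kept. The pair of 105 higher and 34 lower genes in both libraries became 26 and 0 with at least 1 rule gene UMI, 248 and 10 after thinning to 2000 UMIs (4 CTRL cells), 164 and 67 at a lower level minimum, 52 and 16 at a higher one, 455 and 85 with none, 271 and 104 at 1.5-fold, 51 and 4 at 3-fold, and 59 and 62 with each gene's highest effector cell left out. Without Gzma-alone cells 200 were higher. The pair of 11 higher and 4 lower genes in DHEA effector cells became 25 and 1 with at least 3 rule gene UMIs, 74 and 21 with Gzmk cells kept, 18 and 2 without NK or myeloid marker cells, 6 and 2 without Gzma-alone cells, 26 and 16 at a lower minimum, 5 and 0 at a higher one, 986 and 666 with none, 41 and 16 at 1.5-fold, 3 and 0 at 3-fold and 18 and 1 without each gene's highest cell. With at least 1 rule gene UMI 5 were higher. The lower count was 0 with both CD8 chains required, 1 without dividing cells and 0 after thinning. The 4 alternatives that left out the Gzma-alone cells, the NK-marker-rich cell, Gzmk cells among the other cells, and each gene's highest cell were chosen after seeing the data.

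Among the ratios of at least 2-fold, directions turned for few of the genes named. With at least 1 rule gene UMI the effector over other ratio was 0.084 for Hspa1a in DHEA and -0.039 for Hspa1b in CTRL. Klra8 in DHEA, on 5 UMIs, was at -0.24 with at least 3 rule gene UMIs, -0.27 with both CD8 chains required and -0.65 without its highest cell. After thinning, Tanc1 in CTRL was at 1.08, and the DHEA over CTRL ratios of Vim and Lsp1 were -0.84 and -0.16. Without Gzma-alone cells Cxcr3 and Hspa1b in CTRL were at -0.032 and -0.51, and the DHEA over CTRL ratio of Bcl2 was 0.16. Without its highest cell Hspa1b in CTRL was at -0.81. Some CTRL effector over other ratios past 2-fold kept their direction over the alternatives but shrank in some. Rora ran from 0.09 to 2.80, Cxcr6 from 0.28 to 2.54 and Dapl1 from -4.51 to -0.08. Ratios under 2-fold turned for further genes named. Over the alternatives, the DHEA over CTRL ratio ran from -0.93 to 0.66 for Foxn3 and from -1.11 to 3.41 for Zeb2. It ran from -0.68 to 0.52 for Nkg7 and from -0.72 to 1.49 for Tbx21. The effector over other ratio of Isg15 in DHEA ran from -0.33 to 0.74. The causes were not tested. S100a4 ranged from 1.11 to 3.46, S100a6 from 1.01 to 2.82 and Il2rb from -2.07 to -0.50 in the DHEA over CTRL comparison. Other genes named there fell further, with Hmgb2 running from 0.31 to 3.61 and Abracl from 0.23 to 2.06. Jun ran from -1.58 to -0.07 and Ifi203 from -1.47 to -0.08. No paired analysis was possible because each group has 1 library.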
